A study of Mus musculus with 12 samples.

Results

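The genes described here encode subunits of the respiratory chain and of ATP synthase in macrophages that met lipopolysaccharide (LPS) for the first or the second time. Members were the genes whose array symbol begins with Ndufa, Ndufb, Ndufc, Ndufs or Ndufv (complex I), with Uqcr (complex III), with Cox4 to Cox8 (complex IV) or with Atp5 (complex V), without the Ndufaf assembly factors. The rule used names only, and no measured value, but it was set with earlier results of these data known. It found 78 of the 18193 genes measured, 36 for complex I, 8 for complex III, 17 for complex IV and 17 for complex V. The cells were bone marrow cells of C57Bl/6 mice that had differentiated in M-CSF, the growth factor that turns marrow progenitors into macrophages, and total RNA was hybridised to 12 arrays. Each of 4 groups held 3 biological replicates with the letters A, B and C. Untreated cells received no LPS in either phase. The group called LPS once here received none in the first phase and 100 ng/ml in the last. Pretreated cells received 100 ng/ml for 18 h, then new medium and 2 h of rest, and no further LPS. Restimulated cells had the same pretreatment and rest and then a second dose of 100 ng/ml. All groups thus went through the same 18 h phase and the same change of medium. Neither the length of the last stimulation nor the age and sex of the mice is given in the sources used here, and nothing says whether the replicates were separate animals, so p-values measure the spread between these samples.

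Complex I takes electrons from NADH and passes them to ubiquinone. Complex III passes them on to cytochrome c, complex IV hands them to oxygen, and the protons pumped along the way drive complex V, which makes ATP. The subunits of each complex are needed in fixed proportions, and those counted here are all encoded in the nucleus. In macrophages the chain is known for its change of use after LPS, when the cells lean on glycolysis and part of the electron flow serves to form reactive oxygen species.

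The values were intensities on a linear scale, analysed as log2(intensity + 16), so a log2 level of 10 or more here is a bright probe set. Each gene was read from its brightest probe set with a single gene symbol. Levels of different probe sets are not comparable as amounts of RNA, so genes are compared through their changes only. Of the 78 members, 69 had a mean intensity of at least 100 and 9 were dimmer. The dim ones were Ndufb4, Ndufa4l2, Cox4i2, Cox6a2, Cox6b2, Cox7a1, Cox7b2, Cox7c and Cox8b. Ndufb4, an accessory subunit of complex I, is read by a brighter pair of probe sets that also carry the symbols of 2 near-identical copies, with mean intensities of 1896 and 1444, and these entered no count.

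All 8 macrophage markers looked up were above an intensity of 100, and 20 of 25 markers of other cell types were below it. The others were the collagen genes Col1a1, Col1a2 and Col3a1 and the neutrophil genes Ngp and Camp. The summed intensity of 5 stromal markers was 2388 to 5139 on the 4 arrays of replicate A, 4845 to 8006 on those of replicate B and 202 to 284 on those of replicate C, so stromal RNA followed the replicate letter, and each group holds 1 array of each letter. Its part in the results was not tested. In bulk RNA, fewer cells of a type and less RNA per cell cannot be told apart. Tnf rose from a log2 level of 8.46 in untreated cells to 12.78 after LPS once, and Il6 rose from 4.82 to 12.46. Restimulated replicate C stood apart, with a mean intensity of 246.7 against 310.0 to 317.0 on the other 11 arrays. The spread used in the tests is that between replicates, in a single limma fit over all arrays and genes, with p-values adjusted by Benjamini and Hochberg over the 18193 genes. Errors beside differences are standard errors (SE) of that fit with 3 arrays per group, and a gene is called changed at an adjusted p under 0.05.

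On the deposited scale, a first dose of LPS was followed by lower levels of 37 of the 78 subunit genes and higher levels of 3. Over all genes measured, 20.4% were called lower and 13.0% higher in this comparison. The median change of the members was -0.32 on the log2 scale as deposited and turned to 0.01 when arrays were centred on genes of middle intensity. As deposited the median was 0.04 for all genes and -0.16 for the 2142 genes with a mean intensity of at least 1000, the brightness class of 63 members. Of those 2142 genes 32.9% were called lower and 20.9% higher, larger shares than over all genes. In a fit of only the 8371 genes with a mean of at least 100, 35 members were lower and 2 higher. There 37.0% of the genes were lower and 15.4% higher. Changes were small on the probe sets used: with a 2-fold minimum 0 members were lower (9.16% of all genes) and 1 was higher (3.92% of all genes). For each of the 37 lower members the 3 arrays after LPS once lay below the 3 untreated arrays, and 20.3% of all genes were both called lower and free of overlap. Without replicate C of that group 27 members were called lower, without replicate A 46, and 27 to 46 members were lower whichever single array of the 12 was left out.

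How far the whole family fell depends on the scaling. When each array was centred on the genes of middle intensity, 100 to 1000, the median change of all genes moved from 0.04 to 0.37, and that of the members from -0.32 to 0.01. On that scale 7 members were called lower and 8 higher, where 13.7% of all genes were lower and 41.9% higher. The median of the members lay below that of all genes on both scales. The 7 that stayed lower on both were Ndufb10, Ndufa6, Ndufv2, Ndufb5 and Ndufa8 of complex I and Atp5g2 and Atp5c1 of complex V. Quantile normalization gave 50 lower and 2 higher, where 17.7% of all genes were lower and 14.2% higher.

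**Figure D1:**
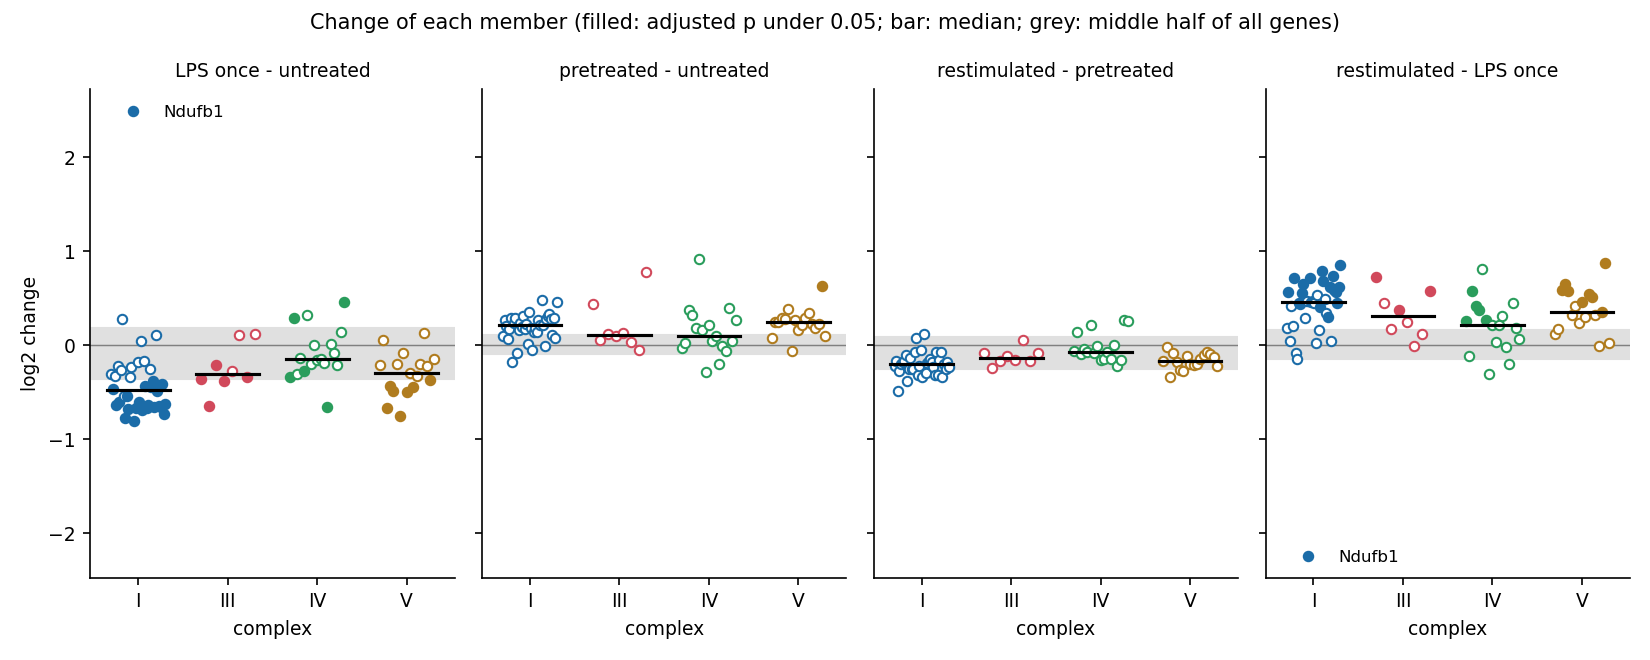
Change of each of the 78 members on the log2 scale, by complex, in 4 comparisons of groups of 3 arrays. Each point is 1 gene, filled where the adjusted p was under 0.05, the bar is the median of the complex, and the grey band spans the middle 50% of all genes. Complex I lies lowest after a first LPS dose, and Ndufb1 stands far above the others there and far below them in the comparison of the LPS-treated groups.

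As deposited, complex I, the largest of the 4 in members, held most of the decreases. Its share called lower, 61.1%, was near the 62.5% of complex III. In the first response 22 of its 36 members were lower and 1 was higher, with a median of -0.48. The 6 nuclear-encoded subunits of its catalytic core that were measured, most of which carry the flavin or iron-sulfur clusters, were all lower. They were Ndufs1, Ndufs3, Ndufs7, Ndufs8, Ndufv1 and Ndufv2, with log2 changes of -0.73 to -0.38, and 1 of them, Ndufv2, was still lower after centring. Of the 30 accessory subunits, which surround the core, 16 were lower. After centring on the middle genes 5 members of complex I were lower and 3 higher, with a median of -0.14.

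The largest decrease was that of Ndufb10, an accessory subunit of the membrane arm. Its log2 levels were 10.35, 10.23 and 10.17 in untreated cells and 9.88, 9.19 and 9.24 after LPS once. They were 10.31, 10.46 and 10.65 in pretreated and 10.17, 10.31 and 9.98 in restimulated cells. The arrays after LPS once were thus below all other 9 arrays, and replicate A was the nearest to them. The first response was -0.81 ± 0.18 (limma adjusted p = 0.00612), a 1.75-fold decrease.

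Ndufa6, an accessory subunit of the LYR protein family, had log2 levels of 10.66, 10.50 and 10.38 in untreated cells and 9.93, 9.61 and 9.66 after LPS once. The groups did not overlap, and the change was -0.78 ± 0.12 (adjusted p = 0.000783). Its levels were 10.43, 10.41 and 10.44 after pretreatment, inside the untreated range, and 10.24, 10.32 and 9.96 after restimulation. Ndufv2, which holds an iron-sulfur cluster of the NADH-oxidising arm, went from 11.22, 11.04 and 11.11 in untreated cells to 10.81, 10.15 and 10.22 after LPS once, a change of -0.73 ± 0.16 (adjusted p = 0.00605). Ndufb5, an accessory subunit of the membrane arm, changed by -0.69 ± 0.18 (adjusted p = 0.0138). That call was lost when LPS once B, LPS once C or untreated A was left out, with adjusted p up to 0.0549.

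Some complex I genes were not called as deposited. Ndufs4, whose loss in mice causes a Leigh-like disease, differed by 0.11 ± 0.21 (adjusted p = 0.714; 95% interval -0.36 to 0.59), and was called higher by 0.44 after centring. Ndufa4, named for complex I but placed by later work in complex IV, differed by -0.27 ± 0.10 (adjusted p = 0.0627). Its relative Ndufa4l2, a gene known to respond to hypoxia, was dim at a mean intensity of 48.7 and differed by 0.28 in the first response without passing the test on the deposited scale, while it was called higher after centring, by 0.61. On the centred scale, which gave these calls of Ndufs4 and Ndufa4l2, the median of all genes was 0.37 and 41.9% were called higher.

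Ndufb1 rose, where 22 other members of its complex fell. It encodes a small accessory subunit of the membrane arm. Its log2 levels were 8.14, 7.92 and 8.03 in untreated cells and 10.77, 10.32 and 10.47 after LPS once. They were back at 8.10, 8.41 and 8.09 in pretreated cells and at 8.61, 8.38 and 7.86 after the second dose. The 3 arrays after LPS once were therefore far above the other 9, and the other 3 groups overlapped. The first response was 2.49 ± 0.19 (adjusted p = 1.95e-05), a 5.62-fold rise. The second response was 0.08 ± 0.19 (adjusted p = 0.862; 95% interval -0.34 to 0.50). The difference between the responses was -2.41 ± 0.27 (adjusted p = 0.00245), called in 23 of 23 alternative settings, with adjusted p up to 0.0114. Ndufb1 was read by a single probe set, so no other probe set bears on its values.

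The gene next to Ndufb1 in the RefSeq annotation is Cpsf2, a subunit of the cleavage and polyadenylation complex, read from the opposite strand. Cpsf2 was looked up after the values of Ndufb1 were seen. It differed by 0.71 ± 0.27 in the first response (adjusted p = 0.0703) and was lower in restimulated than in LPS once cells by 1.00 on the log2 scale (adjusted p = 0.0339). Whether the probe set of Ndufb1 picks up RNA from this neighbour was not tested.

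The promoter windows of 4 members are shown for the genes that the results turn on: Ndufb1, with the only large rise, Ndufa6 and Atp5g2, among the largest decreases, and Atp5o, the one member raised by pretreatment. Each runs from 250 bases before to 50 bases after the transcription start in RefSeq on build GRCm38.p6, written 5′ to 3′ on the strand of the gene. Capitals mark the site of nuclear respiratory factor 1, searched on both strands as GCGC, then any base, then TGCGC. The windows are chr12:101975689-101975988, chr15:82354242-82354541, chr15:102670998-102671297 and chr16:91931581-91931880, all on the minus strand.
Ndufb1: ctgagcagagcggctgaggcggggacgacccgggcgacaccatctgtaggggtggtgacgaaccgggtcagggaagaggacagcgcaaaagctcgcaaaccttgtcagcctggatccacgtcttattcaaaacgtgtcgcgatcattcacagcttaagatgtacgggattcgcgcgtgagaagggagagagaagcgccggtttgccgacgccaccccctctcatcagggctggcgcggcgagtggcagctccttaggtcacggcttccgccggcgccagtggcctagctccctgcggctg
Ndufa6: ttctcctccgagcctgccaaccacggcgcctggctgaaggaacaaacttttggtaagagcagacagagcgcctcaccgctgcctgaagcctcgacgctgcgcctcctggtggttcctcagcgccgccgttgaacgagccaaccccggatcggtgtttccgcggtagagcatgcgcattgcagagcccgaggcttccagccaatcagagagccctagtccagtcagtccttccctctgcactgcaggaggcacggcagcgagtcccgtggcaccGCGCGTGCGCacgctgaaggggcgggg
Atp5g2: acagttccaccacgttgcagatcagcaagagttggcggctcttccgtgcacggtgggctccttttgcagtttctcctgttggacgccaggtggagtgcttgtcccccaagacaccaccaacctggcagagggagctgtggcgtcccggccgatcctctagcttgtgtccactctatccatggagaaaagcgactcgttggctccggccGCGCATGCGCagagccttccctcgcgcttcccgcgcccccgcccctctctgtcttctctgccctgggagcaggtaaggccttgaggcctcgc
Atp5o: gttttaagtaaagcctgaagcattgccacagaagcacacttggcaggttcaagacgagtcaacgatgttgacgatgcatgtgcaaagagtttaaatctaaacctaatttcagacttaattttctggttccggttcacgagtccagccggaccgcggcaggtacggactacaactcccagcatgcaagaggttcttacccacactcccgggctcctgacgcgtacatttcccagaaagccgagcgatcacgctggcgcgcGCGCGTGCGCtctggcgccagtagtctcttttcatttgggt
The last 3 hold the letters and the window of Ndufb1 does not. It shares 265 of its 300 bases with the window of Cpsf2, which runs on the plus strand.

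Promoter windows were on hand for 64 of the 78 members. The nuclear respiratory factor 1 letters stood in those of 13 members (20.3%), against 7.17% of 17491 protein-coding genes. Of the 13 with the letters 9 were called lower in the first response, and of the 51 without them 24 were. That difference was not tested. The 4 windows printed above were picked by results, so their share with the letters is not that of the members. For the ETS site bound by Gabpa, CCGGAAG on either strand, the counts were 15 members (23.4%) against 12.9%. The site of estrogen-related receptors, AAGGTCA on either strand, was found for 7 members (10.9%, against 4.73%) and the Yy1 site, AAGATGG on either strand, for 10 members (15.6%, against 7.18%). These motifs are textbook sites of factors that drive respiratory genes, and a match of letters is not a bound site. In complex V, 6 of 15 members had the first motif and 6 of 15 the ETS site, against 5 and 4 of 32 in complex I. Windows cover only the start of each gene.

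**Figure D2:**
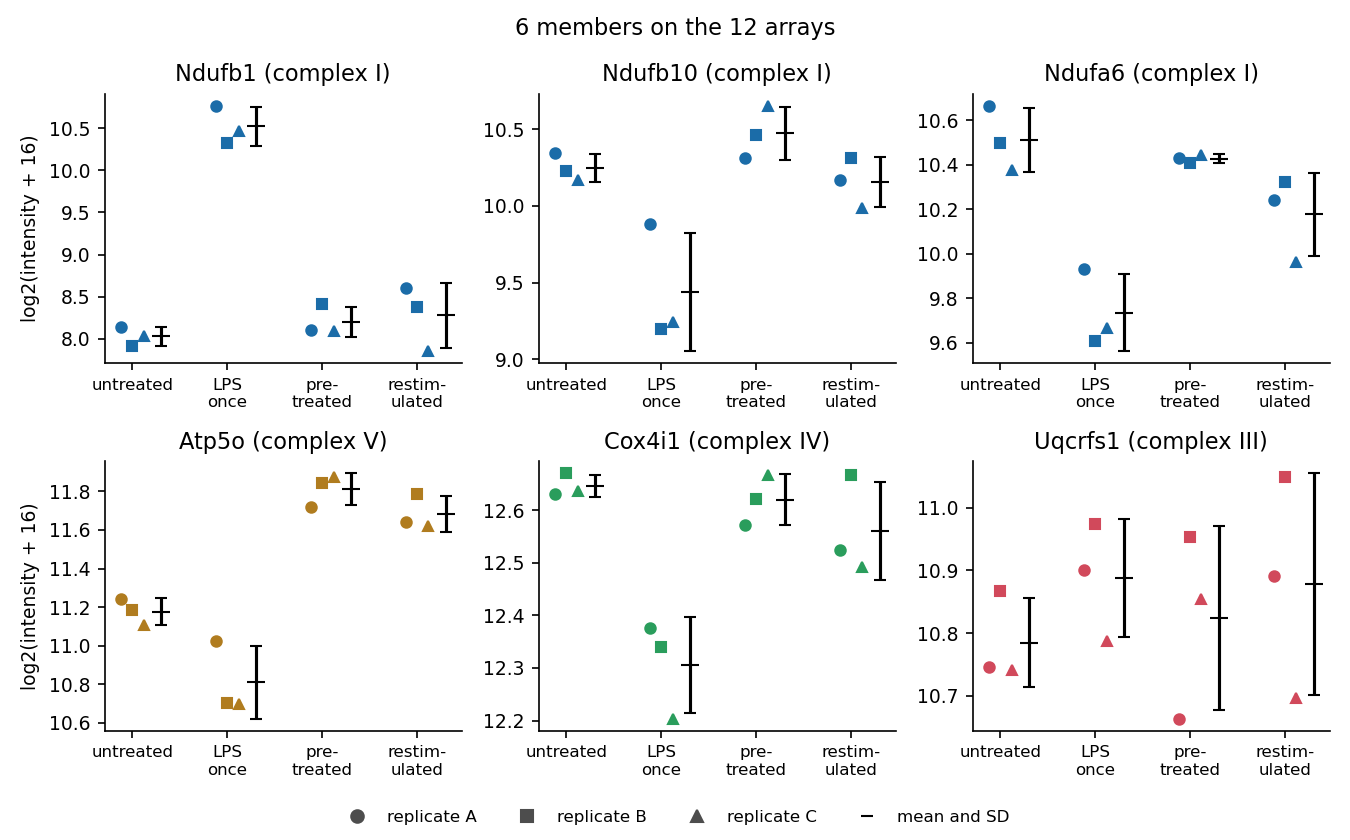
Log2(intensity + 16) of 6 members on the 12 arrays, by group. Symbols mark the replicate letter, and the bar beside them gives the mean and SD of the 3 arrays. Ndufb1 is high after LPS once only, Ndufb10 and Ndufa6 are low there, Atp5o is high in both pretreated groups, Cox4i1 falls by 0.34 as deposited, and the groups of Uqcrfs1 overlap. Vertical axes differ between panels and do not start at 0.

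In complex III, 5 of 8 members were lower in the first response and 0 were higher, with a median of -0.31 that turned to 0.02 on the centred scale. Uqcr11, a small subunit, changed most, from log2 levels of 11.06, 10.75 and 10.69 to between 9.99 and 10.58, a change of -0.64 ± 0.18 (adjusted p = 0.0224) that was -0.31 (adjusted p = 0.0987) after centring. Uqcrb, which lies next to the ubiquinone site, was lower as deposited, from 12.96, 12.94 and 12.96 to 12.81, 12.68 and 12.73 (-0.21 ± 0.07, adjusted p = 0.0294). After centring it differed by 0.12 (adjusted p = 0.397), and its second probe set gave 0.04 as deposited. The core protein Uqcrc1 was lower by 0.39 on the log2 scale as deposited and differed by -0.05 (adjusted p = 0.695) after centring. Uqcrfs1, the Rieske iron-sulfur protein that takes the electrons from ubiquinol, was not called, at 10.75, 10.87 and 10.74 before and 10.90, 10.97 and 10.79 after LPS (0.10 ± 0.10, adjusted p = 0.475). On the centred scale Uqcrfs1 was called higher, by 0.44, where the median of all genes was 0.37 and 41.9% were called higher.

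Complex IV, cytochrome c oxidase, had the fewest decreases for its size, 3 of 17, and 2 increases. Its shares, 17.6% lower and 11.8% higher, were near the 20.4% and 13.0% of all genes. Its median was -0.14 and turned to 0.19 on the centred scale. Most of the dim members belong to this complex. Of its 10 members with a mean intensity of at least 100, 3 were lower and 1 was higher, with a median of -0.21. In the separate fit of only the 8371 genes of that brightness, 37.0% of the genes were lower and 15.4% higher. Cox4i1, the ubiquitous form of the largest nuclear-encoded subunit, had log2 levels of 12.63, 12.67 and 12.64 in untreated cells and 12.38, 12.34 and 12.20 after LPS once. The groups did not overlap, and the step of -0.34 ± 0.07 (adjusted p = 0.00334) passed the test as deposited, while after centring the difference was -0.01 (adjusted p = 0.961). Cox6a1, the common form of subunit 6a, was lower by 0.27 (adjusted p = 0.0104) as deposited and differed by 0.06 (adjusted p = 0.668) after centring. The third was Cox7a2l, also called Scaf1, which takes part in joining complexes III and IV into supercomplexes. Its log2 levels went from 11.89, 11.96 and 11.92 to 11.02, 11.47 and 11.29, a change of -0.66 ± 0.11 (adjusted p = 0.00148), and its 3 probe sets gave changes of -0.73 to -0.66. After centring it differed by -0.33 (adjusted p = 0.0691). In the pretreated group it lay at 11.66, 11.73 and 11.76, below all 3 untreated arrays, and was not called there. Its relative Cox7a2, the common subunit 7a, differed by -0.18 and was not called.

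The tissue-restricted forms of complex IV were dim, except Cox8c, which lay above an intensity of 100. Cox4i2, the form of subunit 4 known from lung, had a mean intensity of 25.8, and Cox7a1 and Cox6a2, the forms of heart and muscle, had 33.7 and 75.3. Cox6b2 and Cox8c, known from testis, had 30.8 and 167, Cox8b, a muscle form, 23.5 and Cox7b2 10.8. Cox8c was called higher in the first response, from intensities of 124.3, 129.0 and 137.4 to 170.4, 189.5 and 194.4 (log2 change 0.46 ± 0.08, adjusted p = 0.00185). Cox4i2 was called higher too, from 23.9, 20.3 and 22.6 to 32.1, 27.1 and 33.0 (0.29 ± 0.08, adjusted p = 0.0167), a call that 4 of 23 alternative settings lost. Both sit near the dim end of the array, where the added constant of 16 shrinks changes. Cox6a2 stood at 45.6, 118.7 and 119.9 in pretreated cells, against 34.8 to 42.3 in untreated cells, with replicate A apart, and was not called.

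In complex V, 7 of 17 members were lower in the first response and 0 were higher, with a median of -0.29 that turned to 0.04 on the centred scale. The parts of the enzyme differed in their counts. Atp5c1, Atp5d and Atp5e, the rotating central stalk, were lower in 3 of 3 cases, by 0.67, 0.44 and 0.48 on the log2 scale, and Atp5c1 alone was called after centring. The other probe set of Atp5c1 gave -1.33 (limma adjusted p = 0.000313), a decrease of more than 2-fold. Atp5a1 and Atp5b, the alpha and beta subunits that form ATP, were called in 0 of 2, at -0.21 and 0.06, while Atp5b was called higher after centring, by 0.39. The median of all genes was 0.37 on that scale, and 41.9% were called higher. In the peripheral stalk, which holds the catalytic head in place, Atp5h and Atp5o were lower and Atp5j and Atp5pb were not called. Atp5j2 was the 1 of 5 membrane and supernumerary subunits that was lower. The difference between these parts was not tested.

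The ring of c subunits, which turns as protons pass, is encoded by 3 genes that give the same mature protein. Atp5g2 had log2 levels of 11.38, 11.11 and 11.22 in untreated cells and 10.66, 10.40 and 10.39 after LPS once, a change of -0.75 ± 0.13 (adjusted p = 0.00198). Atp5g1 and Atp5g3 differed by -0.20 and -0.09 and were not called. Atp5g2 thus accounts for the 1 called decrease among the 3 genes, and it was lower on the centred scale as well, by 0.42.

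**Figure D3:**
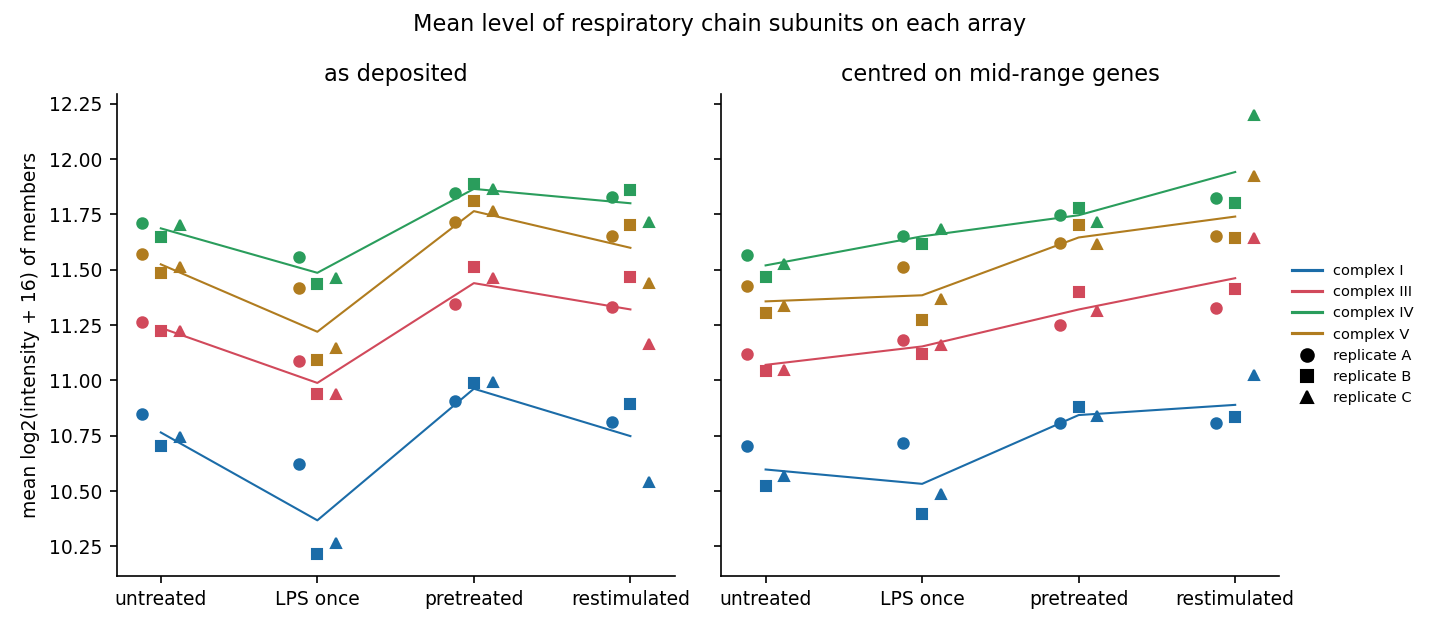
Mean log2(intensity + 16) of the members with a mean intensity of at least 100, by complex, on each of the 12 arrays. The left panel gives the values as deposited and the right panel the same after centring each array on the genes of middle intensity, with lines through the group means of 3 arrays. As deposited, all 4 complexes are lowest after LPS once, while after centring that holds for complex I alone, and restimulated replicate C moves from the lowest to the highest of its group.

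Averaged over the 34 brighter members of complex I, the mean log2 level was 10.85, 10.70 and 10.75 in untreated cells and 10.62, 10.22 and 10.27 after LPS once. It was 10.91, 10.99 and 10.99 in pretreated and 10.81, 10.89 and 10.54 in restimulated cells. The mean first response was -0.40 for complex I, -0.25 for complex III, -0.20 for complex IV and -0.30 for complex V, and after centring it was -0.06, 0.08, 0.13 and 0.03. A difference between 2 complexes on the same array is not moved by a shift of the whole array, such as centring. Complex I minus complex IV was -0.86, -0.95 and -0.96 in untreated cells and -0.94, -1.22 and -1.20 after LPS once. Replicates B and C were lower than every untreated array, and replicate A lay within their range. Letter by letter, the value after LPS once was below the untreated one each time, by least for replicate A.

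Pretreatment alone, after the rest, left 1 member called higher and 0 lower, where 0.473% of all genes were higher and 0.451% lower. The members leaned upward without passing the test: 67 of 78 were above 0, with a median of 0.20 against 0.02 for all genes, and 27 were higher and 0 lower at an unadjusted p under 0.05, where 5.80% of all genes were higher and 6.26% lower. This comparison shares the untreated arrays with the first response. The called member was Atp5o, the oligomycin sensitivity-conferring protein of the peripheral stalk. Its log2 levels were 11.24, 11.18 and 11.11 in untreated cells, 11.03, 10.70 and 10.70 after LPS once, 11.72, 11.84 and 11.88 in pretreated cells and 11.64, 11.79 and 11.62 in restimulated cells. Both pretreated groups lay above all arrays of the other groups. The rise by pretreatment was 0.63 ± 0.10 (adjusted p = 0.0143). Its second probe set gave 0.99. The call was lost when pretreated B, pretreated C or any of the untreated arrays was left out, with adjusted p of 0.0510 to 0.0836 and the rise still between 0.60 and 0.67.

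A larger difference by pretreatment was not called. Uqcrq, a small subunit of complex III, had 10.85, 10.79 and 10.81 in untreated and 11.30, 11.78 and 11.72 in pretreated cells, a difference of 0.78 ± 0.16 (adjusted p = 0.0681). After LPS once it had 10.69, 11.08 and 11.04, with replicate A below and the others above the untreated arrays, and was not called. The probe set of Uqcrq left once those of shared target were dropped gave 0.09 by pretreatment (limma adjusted p = 0.927). In the first response that probe set gave 0.44 (limma adjusted p = 0.0953). With the replicate letter as a block, 3 members were called higher by pretreatment.

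The second dose of LPS changed 0 members in either direction by limma on the probe sets used here, where 3.09% of all genes were lower and 0.962% higher. The other probe set of Atp5c1 gave -1.21 (limma adjusted p = 0.00851), against -0.34 from the one used. At an unadjusted p under 0.05, 9 members were lower and 1 was higher, where 15.3% of all genes were lower and 4.51% higher. As deposited 71 of 78 members were below 0, with a median of -0.16 against -0.02 for all genes. The median turned to 0.10 on the centred scale, where that of all genes was 0.24. Both values lean on restimulated replicate C. Without it the median was -0.08 as deposited, against -0.00 for all genes. After centring without it the median was 0.01, against 0.09 for all genes. With restimulated replicate C included, the mean second response was -0.21 for complex I, -0.12 for complex III, -0.06 for complex IV and -0.17 for complex V.

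The interaction term of the fit set the second response against the first, gene by gene. Ndufb1 was the 1 member called lower (1.97% of all genes) and 0 were called higher (1.93% of all genes). At an unadjusted p under 0.05, 15 members were higher and 2 lower, where 8.55% of all genes were higher and 8.96% lower. As deposited 58 of 78 had a second response above the first, with a median difference of 0.15 against -0.02 for all genes. Quantile normalization called 12 higher and 1 lower, where 3.80% of all genes were higher and 2.90% lower, and leaving out single arrays called 0 to 5 higher. For the 37 genes that fell in the first response, a smaller fall in the second is thus not shown gene by gene on the deposited scale.

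After LPS, the subunits stood higher in cells that had been pretreated than in cells that had not. Of the 78 members 35 were higher in restimulated than in LPS once cells and 1, Ndufb1, was lower, where 7.49% of all genes were higher and 7.21% lower. The median was 0.39, against -0.00 for all genes and likewise -0.00 for those with a mean intensity of at least 1000. Of the genes with a mean intensity of at least 1000, 16.3% were called higher and 16.6% lower, larger shares than over all genes. With a 2-fold minimum, 0 were higher (2.51% of all genes) and 1 was lower (3.21% of all genes). The direction held on the centred scale, with 25 higher, 1 lower and a median of 0.37, where 8.68% of all genes were higher and 8.97% lower. With quantile normalization 56 were higher and 1 lower, where 10.7% of all genes were higher and 8.59% lower. This comparison shares the LPS once arrays with the first response.

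The count depends on single arrays and on how the spread was estimated. It was 18 without LPS once C, 20 without LPS once B, 20 without restimulated B, 26 without restimulated A and 48 without restimulated C. With only the 6 arrays of these groups in the fit, it was 6. The mean difference was 0.38 for complex I, 0.33 for complex III, 0.31 for complex IV and 0.38 for complex V, and after centring 0.36, 0.31, 0.29 and 0.36.

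By complex, 19 of 36 members of complex I, 3 of 8 of complex III, 5 of 17 of complex IV and 8 of 17 of complex V were higher. Of the 10 members of complex IV with a mean intensity of at least 100, 5 were higher. Atp5o led with 0.87 ± 0.10 (adjusted p = 0.000458), a 1.83-fold difference from the levels given above. Ndufv3, a small subunit of the NADH-oxidising arm, had log2 levels of 10.87, 10.40 and 10.47 after LPS once and 11.54, 11.39 and 11.38 in restimulated cells. The groups did not overlap, and the difference was 0.86 ± 0.12 (adjusted p = 0.00127). Ndufb8, a membrane arm subunit often used as a marker of assembled complex I, had 11.14, 10.52 and 10.65 against 11.73, 11.64 and 11.33 (0.79 ± 0.16, adjusted p = 0.00922). Ndufs5 differed by 0.74 ± 0.12 (adjusted p = 0.00312). Uqcr10, a small subunit of complex III, had 10.91, 10.56 and 10.75 against 11.36, 11.53 and 11.50 (0.72 ± 0.10, adjusted p = 0.00136).

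All 6 measured core subunits of complex I were higher, by 0.30 to 0.62, as were the 3 central stalk subunits of complex V, by 0.58 to 0.65. After centring, 3 of the 6 and 2 of the 3 were called. Neither Atp5a1 nor Atp5b was called, at 0.12 and 0.17. In complex IV the higher members were Cox4i1 (0.25), Cox5a (0.58), Cox5b (0.41), Cox6a1 (0.38) and Cox6b1 (0.27). Cox5a, a subunit on the matrix side of the enzyme, had 12.02, 11.71 and 11.96 after LPS once against 12.66, 12.41 and 12.36. Uqcrfs1 differed by -0.01 (adjusted p = 0.97; 95% interval -0.24 to 0.22).

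Probe sets of the same gene mostly went together. Of 36 members with more than 1 probe set of at least 100, 32 had the same sign on all of them after a first dose and 33 between the LPS-treated groups, with 0 opposite calls. Ndufs8 was among the exceptions, with changes of -0.77 to 0.27 over 6 probe sets after a first dose and of -0.13 to 0.66 between the LPS-treated groups. For Uqcrq, the probe set left once those of shared target were dropped gave -0.47 (adjusted p = 0.131) between the LPS-treated groups, against 0.58 from the probe set used here (adjusted p = 0.0418). The 6 brighter probe sets that carry several symbols, among them those of Ndufb4, Ndufa11 and Ndufs6, all had lower means after LPS once than in untreated cells and higher means in restimulated than in LPS once cells, differences that were not tested. Over the 69 brighter members, the change in the first response had a Spearman correlation of 0.16 with the mean level, across genes that share arrays and scaling.

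Genes that serve the chain without being members were read from lists chosen with earlier results known. In the first response 17 of 69 were lower and 5 higher, against the 20.4% and 13.0% of all genes given above. In complex II, succinate dehydrogenase, which joins the chain to the citric acid cycle, 3 of 4 were lower: Sdha, Sdhb and Sdhd. Sdhb, its iron-sulfur subunit, had log2 levels of 11.43, 11.38 and 11.39 in untreated cells, 10.63, 10.41 and 10.50 after LPS once, 11.86, 11.79 and 11.95 in pretreated and 11.63, 11.63 and 11.51 in restimulated cells. The arrays after LPS once lay below all others, and both pretreated groups above the untreated one. Its first response was -0.88 ± 0.07 (adjusted p = 2.49e-05), its change by pretreatment 0.47 ± 0.07 (adjusted p = 0.0140), and its level after LPS was higher in restimulated cells by 1.08. Cycs, cytochrome c, rose in the first response by 0.69 ± 0.19 (adjusted p = 0.0206).

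Among assembly factors, 3 of 14 for complex I, 3 of 6 for complex III, 3 of 18 for complex IV and 1 of 4 for complex V were lower in the first response. Coa6, which helps to deliver copper to complex IV, was lower by 1.86 on the log2 scale, Tmem126b, of the complex I assembly machinery, by 1.66 and Uqcc3, of complex III, by 1.55. Ttc19, which clears fragments of Uqcrfs1 from complex III, was the 1 assembly factor that rose, by 1.45 ± 0.22 (adjusted p = 0.000873). Tmem126b was dim, with a mean intensity of 90.07, and Ttc19 lay just above the limit of 100, at 114.1. These counts are of few genes, and nothing is read from them against the 20.4% of all genes called lower.

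Of 15 regulators of mitochondrial genes 3 were higher and 3 lower in the first response, shares near those of all genes. Gabpb1, a partner of the ETS factor Gabpa, had log2 levels of 7.41, 7.28 and 7.26 in untreated cells and 8.96, 9.25 and 9.26 after LPS once, a rise of 1.84 ± 0.18 (adjusted p = 8.12e-05). In pretreated cells it lay between 6.93 and 7.10 and in restimulated cells 7.74, 7.74 and 6.99. Only the arrays after LPS once were above 8. Pprc1, a coactivator, and Esrra, a nuclear receptor, which both act on mitochondrial genes, rose by 0.77 and 0.40. Polg, Polg2 and Twnk, which copy mitochondrial DNA, were lower by 0.52, 1.65 and 0.59.

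**Figure D4:**
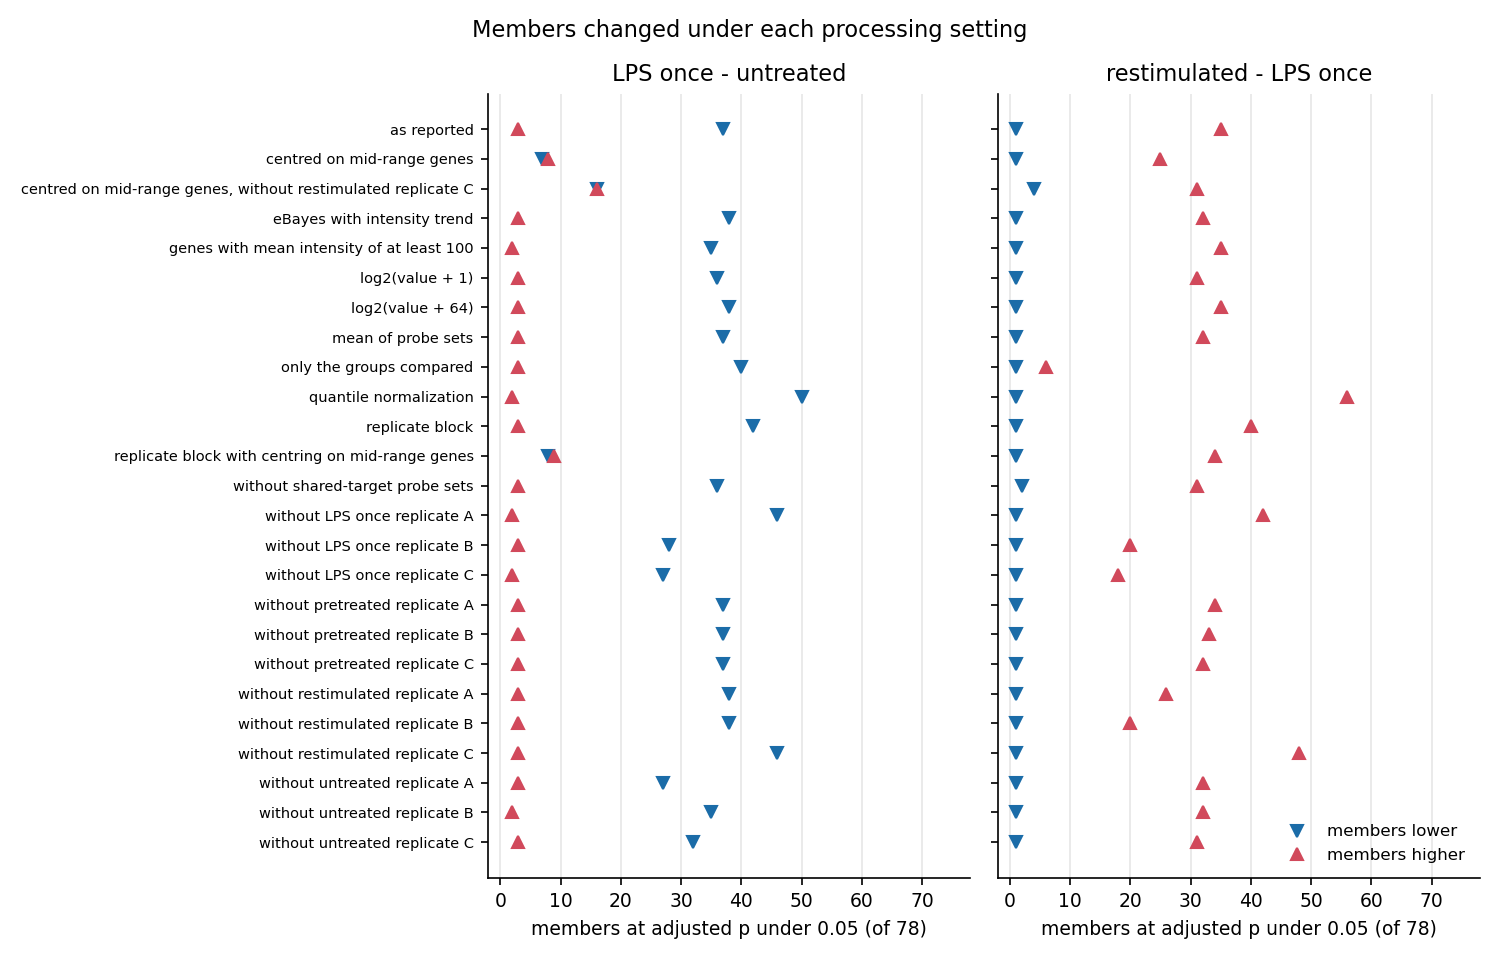
Number of the 78 members called lower (downward triangles) or higher (upward triangles) under each setting, for LPS once minus untreated and restimulated minus LPS once. Each line is 1 setting, and the horizontal axis counts members at an adjusted p under 0.05. Counts of lower members in the first response range from 7 with centring to 50 with quantile normalization, and counts of higher members on the right from 6 to 56.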

How the data were processed

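Per the labels, RNA was extracted in TriFast and labelled by the Affymetrix standard procedure. The deposited values are linear intensities for each probe set and array. The labels do not say how the authors corrected background or scaled the arrays. Of 45101 probe sets, 64 were controls, 34945 had 1 gene symbol, 932 several and 9160 none in the platform annotation. Symbols were updated through RefSeq's gene table of GRCm38.p6, which matched 34741 probe sets and all 78 members.

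Values were used as log2(intensity + 16) with no further normalization, 1 probe set per gene. Limma 3.58.1 in R 4.3.3 fitted 4 group means to 12 arrays (8 residual and 1.71 prior degrees of freedom), tested on simulated data. Precision is limited by 3 arrays per group. The 5 contrasts were the first response, the pretreatment effect, the second response, their difference and the level after LPS. Members and gene lists were chosen with earlier results of these data known. Named were up to 5 called rises and falls per contrast without overlap, isoforms, and up to 3 called genes per related list. Not every gene that this takes is reported.

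Deviations from group means correlated by 0.25 to 0.66 between arrays of the same letter (18 pairs), so the letters pair the samples, although the labels state no shared source. The 36 other pairs had -0.49 to 0.02, pushed below 0 because deviations within a group add up to 0. The main fit leaves this pairing out. With the letter as a block 42 members were lower in the first response (22.1% of all genes). In the level after LPS 40 were then higher (8.72% of all genes). Alternatives covered scaling, the added constant, dim genes, probe set choice, the block and each array left out.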

Additional observations from a re-analysis of the deposited data

Results flagged for a closer look

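The second response differed from the first for 1 member and for 3 genes of the related lists, by limma's test of the difference. For Ndufb1, an accessory subunit of complex I, the difference was -2.41 on the log2 scale (adjusted p = 0.00245). Sdhb, the iron-sulfur subunit of complex II, had a second response above the first by 0.61 (adjusted p = 0.0124), with log2 levels that fell from 11.40 to 10.52 in the first and went from 11.87 to 11.59 in the second. After centring on the middle genes its difference was 0.54 (adjusted p = 0.127). Ttc19, a factor of complex III, had a difference of -1.39 (adjusted p = 0.0410), lost in 9 of 23 alternative settings. Gabpb1, the partner of Gabpa, had a difference of -1.36 (adjusted p = 0.0229), lost in 8 of 23 settings.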

How the results depend on the processing

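Of the counts of called members, centring on genes of middle intensity gave 7 lower and 8 higher in the first response, and 8 and 9 with the replicate block added. Over all genes 13.7% were lower and 41.9% higher with centring, and 15.2% and 47.3% with the block added. In the same scaling without restimulated replicate C, chosen after seeing the data, the first response had 16 lower and 16 higher, the pretreatment effect 5 higher, the interaction 6 lower and the level after LPS 4 lower. Over all genes 15.2% were then lower and 61.1% higher in the first response, and 1.24% higher by pretreatment. In the interaction 27.1% of all genes were lower, and in the level after LPS 34.3%. The pretreatment effect had 2 higher with the intensity trend, with genes of mean intensity of at least 100, with only the groups compared and with the block and centring together, and 3 with the replicate block alone, which changed no other count by over 1.5 times. The interaction had 1 higher with log2(value + 64) and 12 with quantile normalization. The level after LPS had 56 higher with quantile normalization, 6 with only the groups compared and 2 lower without probe sets of shared target. The second response had 1 lower with the mean of probe sets and without probe sets of shared target. Leaving out each array in turn gave, in the first response, 27 to 46 lower and 2 to 3 higher, 0 to 2 higher by pretreatment, 0 to 1 lower in the second response, 0 to 5 higher in the interaction and 18 to 48 higher in the level after LPS. Mean changes of complexes I, III, IV and V after centring were -0.0649, 0.0833, 0.131 and 0.0277 in the first and 0.0461, 0.141, 0.195 and 0.0945 in the second response. The pretreatment effect was then 0.227 for complex IV and 0.289 for complex V. With quantile normalization complex IV had 0.0236 in the second response, and complexes III and IV had 0.480 and 0.419 in the level after LPS. Complex III had 0.12 by pretreatment with the mean of probe sets, and 0.11, with 0.20 in the level after LPS, without probe sets of shared target. The cause of these moves was not tested. Of the named members, Ndufb1 kept its calls in the first response and the level after LPS in 24 of 24 settings, and Ndufb8 lost its call in the level after LPS with only the groups compared (adjusted p = 0.0923). No detection calls were at hand, so dim probe sets are limited by background of unknown size.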
